A study of Mus musculus with 12 samples.

Results

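The 54 genes described here encode the DNA replication machinery and were listed by symbol, with earlier results of these data known. They fell into 6 roles: 13 helicase genes, 11 origin genes, 11 polymerase and primase genes, 11 genes of the sliding clamp, single-strand binding and Okazaki fragment joining, 3 genes of nucleotide supply, and 5 genes of chromatin assembly and fork protection. Each gene was read from its brightest probe, and 52 of the 54 were among the 15663 genes tested. *Mcm8* and *Pola1* were left out by the filter on dim probes and lay under background on every array.

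RNA was hybridised to 12 Illumina Mouse WG-6 arrays, 4 for each of 3 conditions, from T cells of Foxp3GFP mice, in which *Foxp3* expression can be followed by green fluorescence. TregHAR cells were regulatory T cells (Treg cells) cultured from naive CD4+ T cells in low TGFb with harmine, a plant-derived inhibitor of DYRK kinases. Treghi cells were Treg cells cultured in high TGFb without harmine, and naive cells were the CD4+ starting population. By the paper's methods, Treg cultures were stimulated with anti-CD3 and anti-CD28 and fed IL-2. No stimulated cells other than Treg cells were among the arrays. Treg induction, stimulation and culture therefore cannot be told apart in the differences from naive cells. Treg cells of both kinds were sorted by FACS at day 4. In every condition the naive cells behind 2 arrays had been purified by fluorescence-activated sorting (FACS) and those behind the other 2 on magnetic columns (MACS). Cells cultured in low TGFb alone were not analysed here, so TregHAR and Treghi cells differed in both harmine and TGFb, and these cannot be told apart. The labels give neither the age of the mice nor whether replicates came from separate animals or cultures, and p-values therefore measure the spread between arrays only.

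Replication begins when the origin recognition complex, with Cdc6 and Cdt1, loads the Mcm2 to Mcm7 ring onto DNA, and Cdc45 and the GINS proteins turn that ring into the active helicase. Polymerase alpha and primase then start each strand, polymerases epsilon and delta extend it, and Pcna, Rfc, Rpa, Fen1 and Lig1 keep the polymerases on the template and join the fragments. Resting naive T cells are outside the cell cycle and enter it after stimulation through the T cell receptor, when many of these genes are transcribed, in part through E2F factors.

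E2F-type motifs were looked for in the RefSeq promoter windows (build GRCm38.p6, 250 bases before to 50 bases after each start site), which were matched for 45 of the 54 genes. The motif was spelled TTTCCCGC, TTTCGCGC, TTTGCCGC or TTTGGCGC and was read on both strands. It stood in at least 1 window of 18 of the 45 genes (40%), against 704 of all 27025 genes (2.6%). By role, it stood in 6 of 9 helicase genes, 4 of 10 origin genes, 5 of 9 polymerase genes, 2 of 10 clamp, single-strand binding and ligase genes, 0 of 3 nucleotide genes and 1 of 4 chromatin and fork genes. A second motif, CCAAT, stood in 26 of the 45 genes (57.8%), against 41.1% of all genes. A match is a description of the letters and does not show that a factor bound there.

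The 180 bases before the start site are given on the strand of the gene, with E2F-type motifs in capitals, for *Mcm7*, *Mcm5*, *Mcm6* and *Cdc6*, whose transcripts were higher in Treg cells than in naive cells, for *Pole4*, which carries the motif and was not, and for *Mcm10*, which had the largest difference between TregHAR and naive cells and no match. *Mcm7* is at chr5:138171884-138172063 (minus strand), *Mcm5* at chr8:75109329-75109508 (plus), *Mcm6* at chr1:128359706-128359885 (minus), *Cdc6* at chr11:98907971-98908150 (plus), *Pole4* at chr6:82652875-82653054 (minus) and *Mcm10* at chr2:5012792-5012971 (minus). In *Mcm5*, and upstream in *Mcm6*, 2 motifs overlap to form 1 run of capitals.
Mcm7: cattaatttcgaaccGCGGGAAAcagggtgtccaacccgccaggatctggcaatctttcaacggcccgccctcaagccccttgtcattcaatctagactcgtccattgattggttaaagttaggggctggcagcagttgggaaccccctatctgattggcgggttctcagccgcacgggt
Mcm5: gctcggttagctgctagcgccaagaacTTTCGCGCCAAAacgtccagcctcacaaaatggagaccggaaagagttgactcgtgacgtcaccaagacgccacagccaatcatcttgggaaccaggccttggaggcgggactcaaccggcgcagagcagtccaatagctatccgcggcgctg
Mcm6: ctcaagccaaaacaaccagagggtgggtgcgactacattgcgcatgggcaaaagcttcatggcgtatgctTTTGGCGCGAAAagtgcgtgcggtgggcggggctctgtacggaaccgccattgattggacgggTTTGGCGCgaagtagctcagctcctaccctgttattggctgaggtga
Cdc6: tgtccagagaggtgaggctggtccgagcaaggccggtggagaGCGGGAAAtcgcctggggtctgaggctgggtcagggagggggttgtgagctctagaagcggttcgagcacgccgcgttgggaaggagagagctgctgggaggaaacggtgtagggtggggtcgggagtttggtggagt
Pole4: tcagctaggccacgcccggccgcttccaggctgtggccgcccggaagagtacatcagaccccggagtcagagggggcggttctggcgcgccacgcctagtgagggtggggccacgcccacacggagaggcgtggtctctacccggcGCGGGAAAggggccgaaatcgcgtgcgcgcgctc
Mcm10: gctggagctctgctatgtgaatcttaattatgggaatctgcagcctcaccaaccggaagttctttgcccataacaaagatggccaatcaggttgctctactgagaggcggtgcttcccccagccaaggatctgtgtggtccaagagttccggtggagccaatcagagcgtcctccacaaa

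Levels below are normalized log2 intensities, and differences are log2 values ± standard error (SE) from a limma model of all 12 arrays, with p-values adjusted over the 15663 genes and a threshold of 0.05. A probe counted as above background where it exceeded a ceiling of about 6.2 on that array. Values of a condition are listed as FACS 1, FACS 2, MACS 1 and MACS 2. Of the 54 genes, 48 to 49 were above background on a TregHAR array, 47 to 49 on a Treghi array and 43 to 44 on a naive array, and 41 were above it on all 12 arrays. Levels of different probes cannot be set against each other, and only differences within a probe are compared.

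In both kinds of Treg cells most replication genes stood far above their naive level. Of the 52 genes tested, 46 were higher in TregHAR than in naive cells (13.8% of all genes tested were) and 1 was lower (background 13.7%), with 48 of the 52 past an unadjusted p of 0.05 (background 35.7%). In Treghi cells 47 were higher (background 12.9%) and 0 were lower at the threshold (background 13.2%), with 49 of the 52 past an unadjusted p of 0.05 (background 34.2%). The median log2 difference from naive cells was 1.29 in TregHAR and 1.07 in Treghi cells, while over all genes it was -0.01 and -0.005. Both comparisons share the 4 naive arrays. Only 10147 of the 15663 genes tested exceeded the background ceiling on any array, and the shares over all genes include the rest. Among the 54 replication genes, 5 never exceeded it. Taken per array, the median of the 52 genes relative to the naive mean was 1.15 to 1.33 on TregHAR arrays, 0.92 to 1.16 on Treghi arrays and -0.03 to 0.04 on naive arrays. In bulk RNA, more cells in cycle and more RNA of these genes per cell cannot be told apart.

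**Figure D1:**
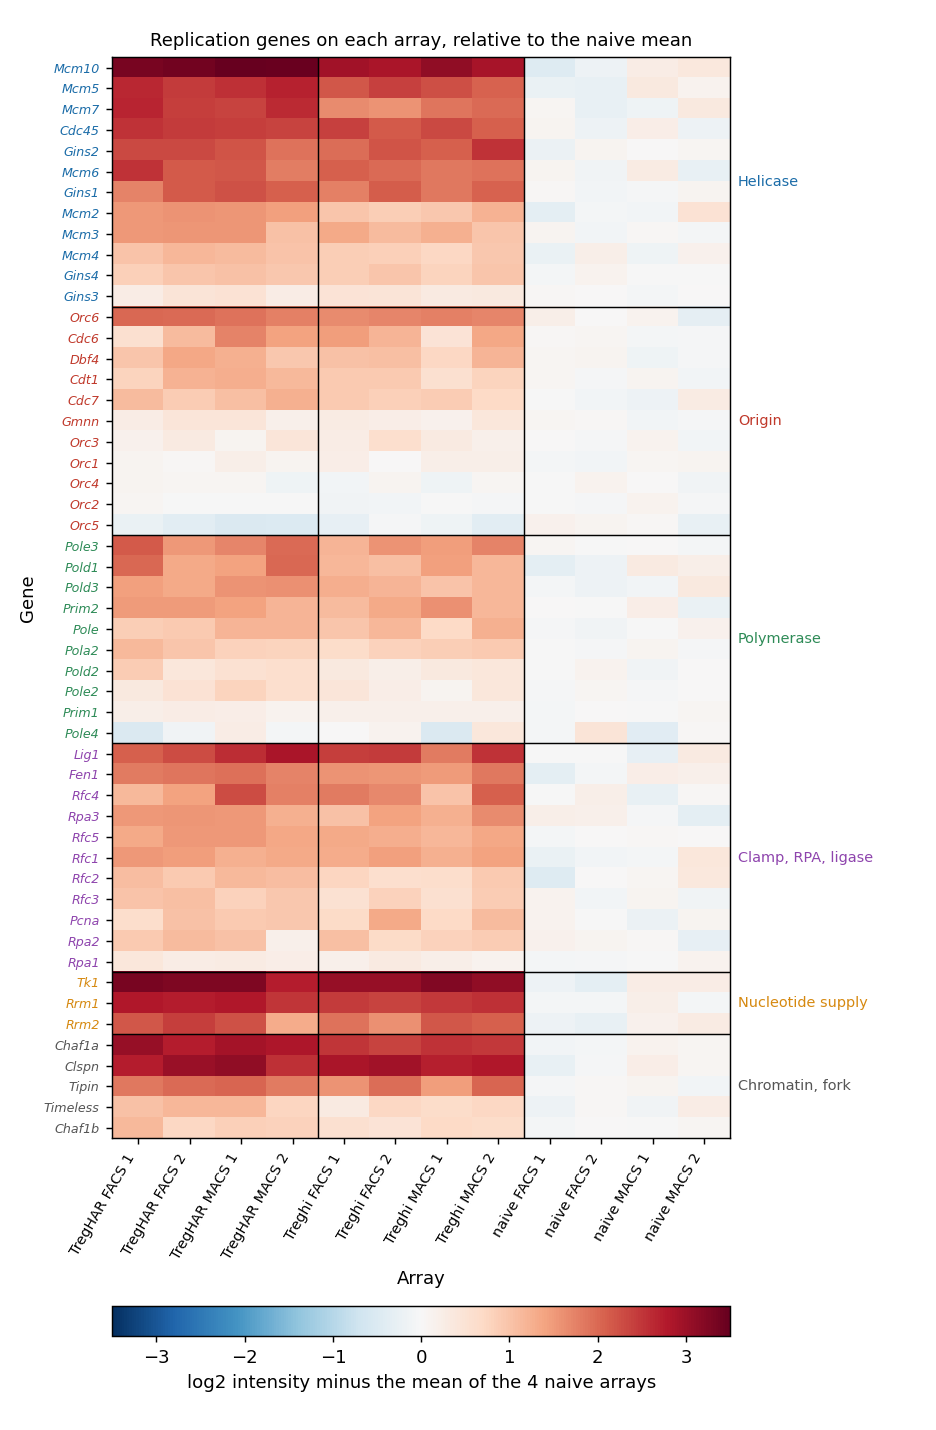
Each row is 1 of the 52 genes tested, grouped by role and coloured as its log2 intensity on each array minus the mean of the 4 naive arrays. TregHAR arrays are on the left, Treghi arrays in the middle and naive arrays on the right. *Mcm10*, *Tk1*, *Chaf1a* and *Clspn* are deepest red in both Treg conditions, and *Orc1*, *Orc2*, *Orc4* and *Pole4* stay pale across all arrays.

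The naive arrays carried RNA of other cells. B cell markers were above background for 7 of 8 genes measured in naive cells, with a summed intensity of 1464 to 1826 in TregHAR, 1529 to 1959 in Treghi and 2866 to 15570 in naive cells, and 6 of the 8 were lower in each Treg condition than in naive cells. Myeloid markers, of which 9 of 10 were above background in naive cells, summed to 1836 to 2240 in TregHAR, 2014 to 2296 in Treghi and 3831 to 28390 in naive cells. Erythroid markers summed to 290.2 to 320.7 in TregHAR, 273.3 to 305.7 in Treghi and 1060 to 7849 in naive cells. The median difference of the replication genes from naive cells was much the same where naive cells were FACS-purified (1.18 in TregHAR, 1.13 in Treghi) and where they were MACS-purified (1.25 in TregHAR, 0.97 in Treghi). Neither set of naive arrays was free of other cells. The myeloid marker *Lyz1*, for example, measured 9.83 and 10.97 on naive FACS arrays and 12.28 and 13.44 on naive MACS arrays, and was under background in Treg cells. Of the Treg markers, 5 of 7 were higher in each Treg condition than in naive cells, but the brightest probe of *Foxp3* was not, with 7.40, 6.96, 6.87 and 6.71 in TregHAR, 7.10, 6.69, 7.06 and 6.62 in Treghi and 7.42, 7.28, 7.09 and 7.11 in naive cells. The part of these markers in the differences of the replication genes was not tested.

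Helicase genes were called throughout, although their differences varied widely in size. All 12 tested were higher in TregHAR and in Treghi cells than in naive cells, with medians of 2.11 and 1.86. *Mcm10*, a factor that helps to activate the loaded helicase, had the largest difference of all 52 genes between TregHAR and naive cells, while *Tk1* had the largest between Treghi and naive cells (3.12). *Mcm10* measured 9.87, 9.93, 10.11 and 10.01 on the TregHAR arrays, 9.49, 9.40, 9.66 and 9.44 on the Treghi arrays, and 6.10, 6.38, 6.80 and 6.93 on the naive arrays. All 8 Treg arrays lay over 2 log2 units above the highest naive array, and the first naive FACS array was under background. The difference from naive cells was 3.43 ± 0.08 in TregHAR (adjusted p = 6.13e-09) and 2.95 ± 0.08 in Treghi cells (adjusted p = 1.57e-08). With the mean of all kept probes of *Mcm10* in place of the brightest, it was 1.67 in TregHAR and 1.39 in Treghi cells.

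*Mcm7*, a subunit of the helicase ring, measured 9.52, 9.28, 9.22 and 9.46 in TregHAR cells, 8.52, 8.44, 8.73 and 8.83 in Treghi cells and 6.92, 6.61, 6.70 and 7.20 in naive cells. The 3 conditions did not overlap, and TregHAR was the highest of them. It exceeded the naive level by 2.51 ± 0.12 in TregHAR (adjusted p = 4.66e-07) and by 1.77 ± 0.12 in Treghi cells (adjusted p = 4.98e-06). *Mcm2*, another subunit of the ring, measured 9.57, 9.61, 9.60 and 9.48 in TregHAR, 9.02, 8.91, 8.98 and 9.26 in Treghi and 7.72, 7.98, 7.96 and 8.55 in naive cells. Its conditions were also apart, the naive values spread most widely (SD 0.35, n = 4), and its difference from naive cells was 1.52 ± 0.13 in TregHAR and 0.99 ± 0.13 in Treghi cells.

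The other subunits of the ring were higher than in naive cells by 2.59 (*Mcm5*), 2.16 (*Mcm6*), 1.41 (*Mcm3*) and 1.07 (*Mcm4*) in TregHAR, and by 2.22, 1.96, 1.16 and 0.84 in Treghi cells in the same order of genes. *Cdc45*, which joins the ring at the active fork, differed by 2.44 in TregHAR and 2.23 in Treghi cells. The GINS genes, whose products bind together as 1 complex, were unequal. *Gins2* differed from naive cells by 2.19 in TregHAR, *Gins1* by 2.06 and *Gins4* by 0.95. *Gins3* had the smallest difference of the role, with 6.56, 6.77, 6.80 and 6.58 in TregHAR, 6.80, 6.76, 6.62 and 6.66 in Treghi and 6.36, 6.33, 6.24 and 6.31 in naive cells. It still passed, at 0.37 ± 0.07 in TregHAR (adjusted p = 0.00348) and 0.40 ± 0.07 in Treghi cells (adjusted p = 0.00235), although all of its values lay close to the background ceiling.

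Origin genes were split. In TregHAR cells 6 of the 11 were higher than in naive cells, 1 was lower and 4 did not pass, and the median was 0.32. In Treghi cells 7 were higher and 4 did not pass, with a median of 0.34. The loading factors and the kinase were among the higher ones, whereas most genes of the origin recognition complex itself were not.

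*Orc6*, the subunit with the largest difference in this role, measured 10.33, 10.30, 10.21 and 10.09 in TregHAR cells, 9.98, 10.02, 10.08 and 10.03 in Treghi cells and 8.53, 8.33, 8.43 and 7.99 in naive cells. It exceeded the naive level by 1.92 ± 0.09 in TregHAR (adjusted p = 5.24e-07) and 1.71 ± 0.09 in Treghi cells (adjusted p = 1.21e-06). *Orc5* went the other way, with 8.30, 8.17, 8.01 and 8.05 in TregHAR, 8.24, 8.48, 8.39 and 8.16 in Treghi and 8.69, 8.61, 8.56 and 8.27 in naive cells. The second naive MACS array reached down into the TregHAR range. *Orc5* fell by 0.40 ± 0.09 in TregHAR cells (adjusted p = 0.00799), and the difference in Treghi cells was -0.21 ± 0.09 (adjusted p = 0.128). *Orc1*, the large ATPase subunit, was under background on all 12 arrays, with 6.01, 5.96, 6.13 and 6.02 in TregHAR, 6.17, 5.93, 6.12 and 6.12 in Treghi and 5.87, 5.84, 5.99 and 6.01 in naive cells, so that no level or fold can be given. *Orc2* was under background throughout as well. *Orc4* was above it on all arrays and differed from naive cells by 0.02 ± 0.08 in TregHAR and -0.03 ± 0.08 in Treghi cells, and *Orc3* by 0.25 ± 0.10 (adjusted p = 0.106) in TregHAR and 0.34 ± 0.10 (adjusted p = 0.0312) in Treghi cells.

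*Cdc6*, an ATPase that loads the helicase ring, measured 6.71, 7.24, 7.87 and 7.54 in TregHAR cells, 7.60, 7.33, 6.61 and 7.48 in Treghi cells and 6.18, 6.21, 6.08 and 6.10 in naive cells. All naive arrays were under background, so TregHAR cells were at least 2.16-fold higher (adjusted p = 0.000882) and Treghi cells at least 2.05-fold higher (adjusted p = 0.00149). The arrays of each Treg condition spread widely (SD 0.49 in TregHAR and 0.44 in Treghi cells, n = 4 each). *Cdt1*, its partner in loading, was 1.09 above the naive level in TregHAR and 0.79 in Treghi cells, and *Gmnn* (geminin), which inhibits Cdt1, was under background in naive cells and above it on 2 TregHAR arrays and 1 Treghi array. *Dbf4* and *Cdc7*, which together form the kinase that fires loaded origins, differed from naive cells by 1.13 and 1.07 in TregHAR, against 0.998 and 0.84 in Treghi cells.

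**Figure D2:**
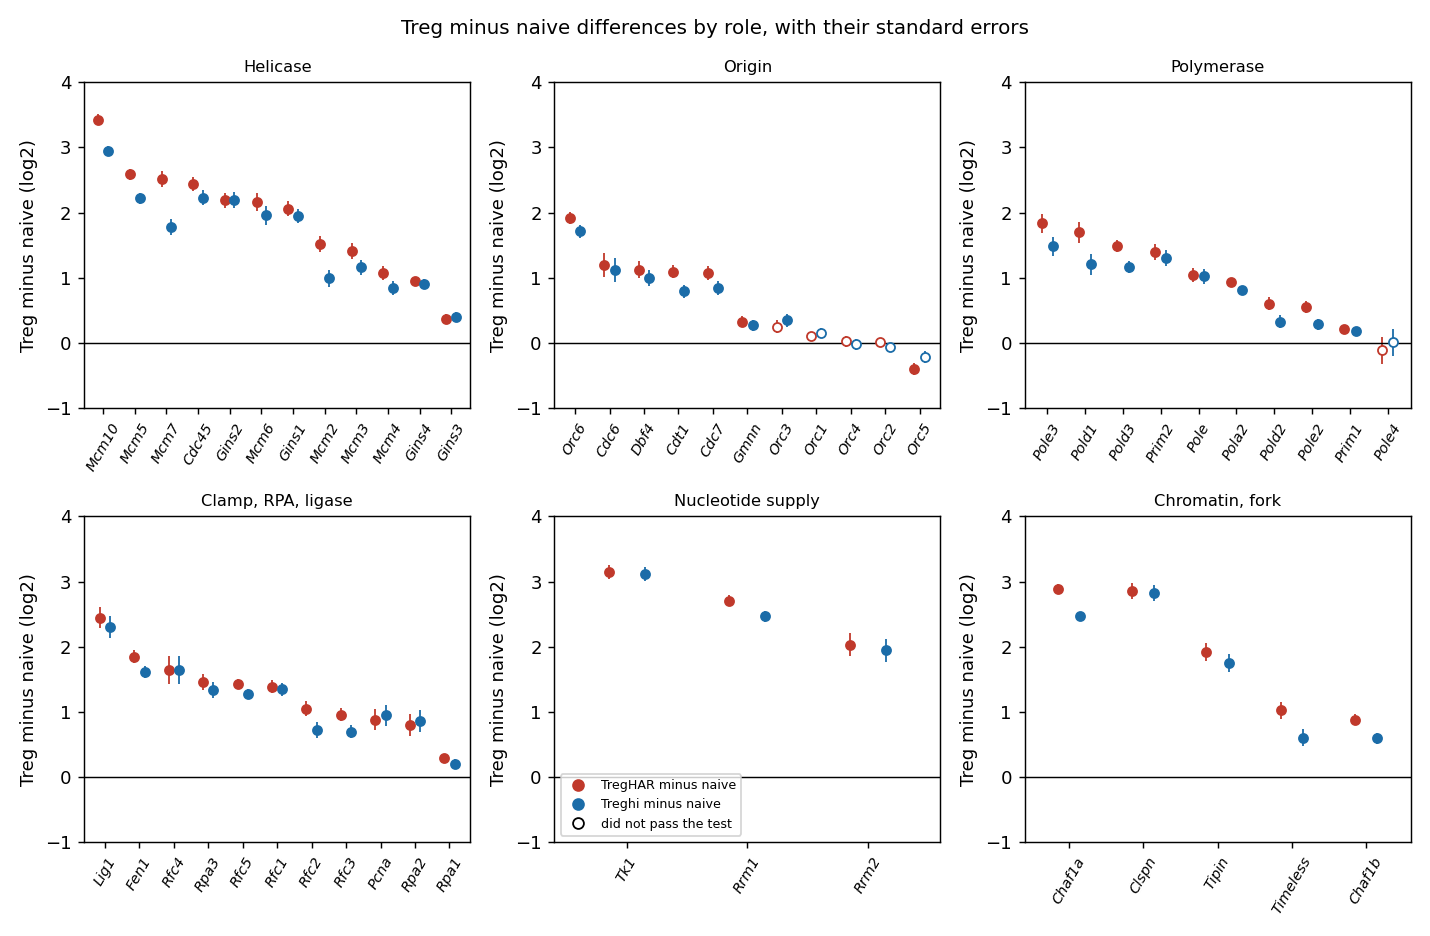
Log2 differences from naive cells with their SE, by role, with TregHAR minus naive in red to the left of Treghi minus naive in blue. Filled circles passed the test and open circles did not. The helicase panel runs from 3.43 down to 0.37 in TregHAR cells, and the origin panel holds most of the open circles.

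Polymerase genes were higher than in naive cells for 9 of the 10 tested, in TregHAR (median 0.98) and in Treghi cells (median 0.91). *Pole3*, a histone-fold subunit of polymerase epsilon, measured 9.98, 9.34, 9.53 and 9.82 in TregHAR, 9.01, 9.39, 9.28 and 9.56 in Treghi and 7.89, 7.81, 7.85 and 7.76 in naive cells. It was the largest of the role, at 1.84 ± 0.15 in TregHAR (adjusted p = 1.14e-05) and 1.48 ± 0.15 in Treghi cells (adjusted p = 5.19e-05). *Pole4*, whose product pairs with that of *Pole3*, measured 6.44, 6.84, 7.22 and 6.90 in TregHAR, 6.96, 7.10, 6.47 and 7.35 in Treghi and 6.89, 7.40, 6.55 and 7.004 in naive cells. The conditions overlapped fully, and the differences from naive cells were -0.11 ± 0.21 in TregHAR and 0.01 ± 0.21 in Treghi cells.

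Among the others, the delta subunits *Pold1*, *Pold3* and *Pold2* differed from naive cells by 1.70, 1.48 and 0.60 in TregHAR, against 1.20, 1.16 and 0.32 in Treghi cells. *Prim2*, the large primase subunit, was 1.40 above the naive level in TregHAR and 1.30 in Treghi cells. *Pole*, the catalytic subunit of polymerase epsilon, was under background in naive cells and at least 1.79-fold higher in TregHAR and 1.77-fold higher in Treghi cells. *Prim1*, the small primase subunit, passed both tests while under background on all 12 arrays, so it has no fold.

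By their brightest probes, all 11 genes of the clamp, single-strand binding and ligase role were higher than in naive cells. The median was 1.38 in TregHAR and 1.28 in Treghi cells. *Lig1*, the ligase that seals Okazaki fragments, measured 8.87, 9.06, 9.36 and 9.64 in TregHAR, 9.20, 9.24, 8.62 and 9.30 in Treghi and 6.79, 6.78, 6.50 and 7.09 in naive cells. It was the largest of the role, at 2.44 ± 0.16 in TregHAR (adjusted p = 3.94e-06) and 2.30 ± 0.16 in Treghi cells (adjusted p = 6.33e-06). The mean of all kept probes of *Lig1* gave 1.24 in TregHAR and 1.10 in Treghi cells. *Rpa1*, the largest subunit of the single-strand binding protein, had the smallest difference, with 12.27, 12.13, 12.16 and 12.11 in TregHAR, 12.07, 12.19, 12.08 and 12.01 in Treghi and 11.82, 11.85, 11.86 and 12.01 in naive cells. The Treg arrays stood barely above the highest naive array, and the difference was 0.29 ± 0.06 in TregHAR (adjusted p = 0.00768) and 0.20 ± 0.06 in Treghi cells (adjusted p = 0.0430). The Treghi call of *Rpa1* was lost in 9 of the 12 fits that left out 1 array, all but those without either TregHAR FACS array or the second naive MACS array, with adjusted p-values of 0.0321 to 0.149. It was lost with a replicate block as well (adjusted p = 0.056), and under scaling to a common median the differences were 0.48 in TregHAR and 0.39 in Treghi cells. The other subunits *Rpa3* and *Rpa2* differed by 1.45 and 0.80 in TregHAR, against 1.34 and 0.85 in Treghi cells. A dimmer probe of *Rpa2*, also above background on all 12 arrays, gave only 0.19 in TregHAR and -0.15 in Treghi cells. Another, above background on 4 arrays, gave 0.13 in TregHAR and 0.22 in Treghi cells.

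*Pcna*, the sliding clamp and a common mark of cycling cells, measured 7.23, 7.65, 7.53 and 7.55 in TregHAR cells, 7.27, 7.93, 7.31 and 7.71 in Treghi cells and 6.72, 6.60, 6.41 and 6.71 in naive cells. Its difference from naive cells was moderate for this role, at 0.88 ± 0.16 in TregHAR (adjusted p = 0.00221) and 0.94 ± 0.16 in Treghi cells (adjusted p = 0.00155). The clamp loader genes *Rfc1* to *Rfc5* differed from naive cells by 0.95 (*Rfc3*) to 1.64 (*Rfc4*) in TregHAR and by 0.69 (*Rfc3*) to 1.64 (*Rfc4*) in Treghi cells. *Fen1*, the flap endonuclease, differed by 1.85 in TregHAR and 1.61 in Treghi cells.

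By their brightest probes, the nucleotide genes had the highest median of any role, 2.71 above the naive level in TregHAR and 2.47 in Treghi cells. All 3 passed in both. The order of the roles was not examined with the mean of all kept probes, which gave 1.26 for *Rrm2* in both Treg conditions. *Tk1*, thymidine kinase of the salvage pathway, measured 9.99, 9.92, 9.92 and 9.40 in TregHAR, 9.72, 9.72, 9.91 and 9.78 in Treghi and 6.48, 6.32, 6.92 and 6.92 in naive cells. The Treg conditions overlapped, and both were far above naive cells, by 3.15 ± 0.10 in TregHAR (adjusted p = 4.28e-08) and 3.12 ± 0.10 in Treghi cells (adjusted p = 4.84e-08). The mean of all 4 kept probes of *Tk1*, of which 2 were under background on every array, gave 1.03 in TregHAR and 1.02 in Treghi cells. *Rrm1*, the large subunit of ribonucleotide reductase, was 2.71 ± 0.08 above naive cells in TregHAR and 2.47 ± 0.08 in Treghi cells. *Rrm2*, its small subunit, measured 8.71, 8.96, 8.77 and 7.83 in TregHAR, 8.44, 8.15, 8.71 and 8.62 in Treghi and 6.37, 6.27, 6.69 and 6.82 in naive cells. The second TregHAR MACS array was the lowest of the 8 Treg arrays, and the differences from naive cells were 2.03 ± 0.17 in TregHAR (adjusted p = 1.71e-05) and 1.94 ± 0.17 in Treghi cells (adjusted p = 2.64e-05).

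All 5 chromatin and fork genes were higher, with a median of 1.92 in TregHAR and 1.75 in Treghi cells. *Chaf1a*, the large subunit of the histone chaperone CAF-1, measured 9.48, 9.18, 9.33 and 9.26 in TregHAR, 8.93, 8.80, 8.96 and 8.90 in Treghi and 6.34, 6.35, 6.55 and 6.50 in naive cells. It exceeded the naive level by 2.88 ± 0.07 in TregHAR (adjusted p = 7.99e-09) and 2.47 ± 0.07 in Treghi cells (adjusted p = 2.32e-08). *Chaf1b*, the second subunit of the same chaperone, moved less, with 9.30, 8.88, 8.98 and 8.96 in TregHAR, 8.71, 8.63, 8.85 and 8.79 in Treghi and 8.08, 8.17, 8.14 and 8.21 in naive cells, a difference of 0.88 ± 0.09 in TregHAR and 0.59 ± 0.09 in Treghi cells. *Clspn* (claspin), an adaptor of the replication checkpoint, differed from naive cells by 2.86 in TregHAR and 2.82 in Treghi cells, and the fork protection partners *Tipin* and *Timeless* by 1.92 and 1.03 in TregHAR, against 1.75 and 0.60 in Treghi cells.

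**Figure D3:**
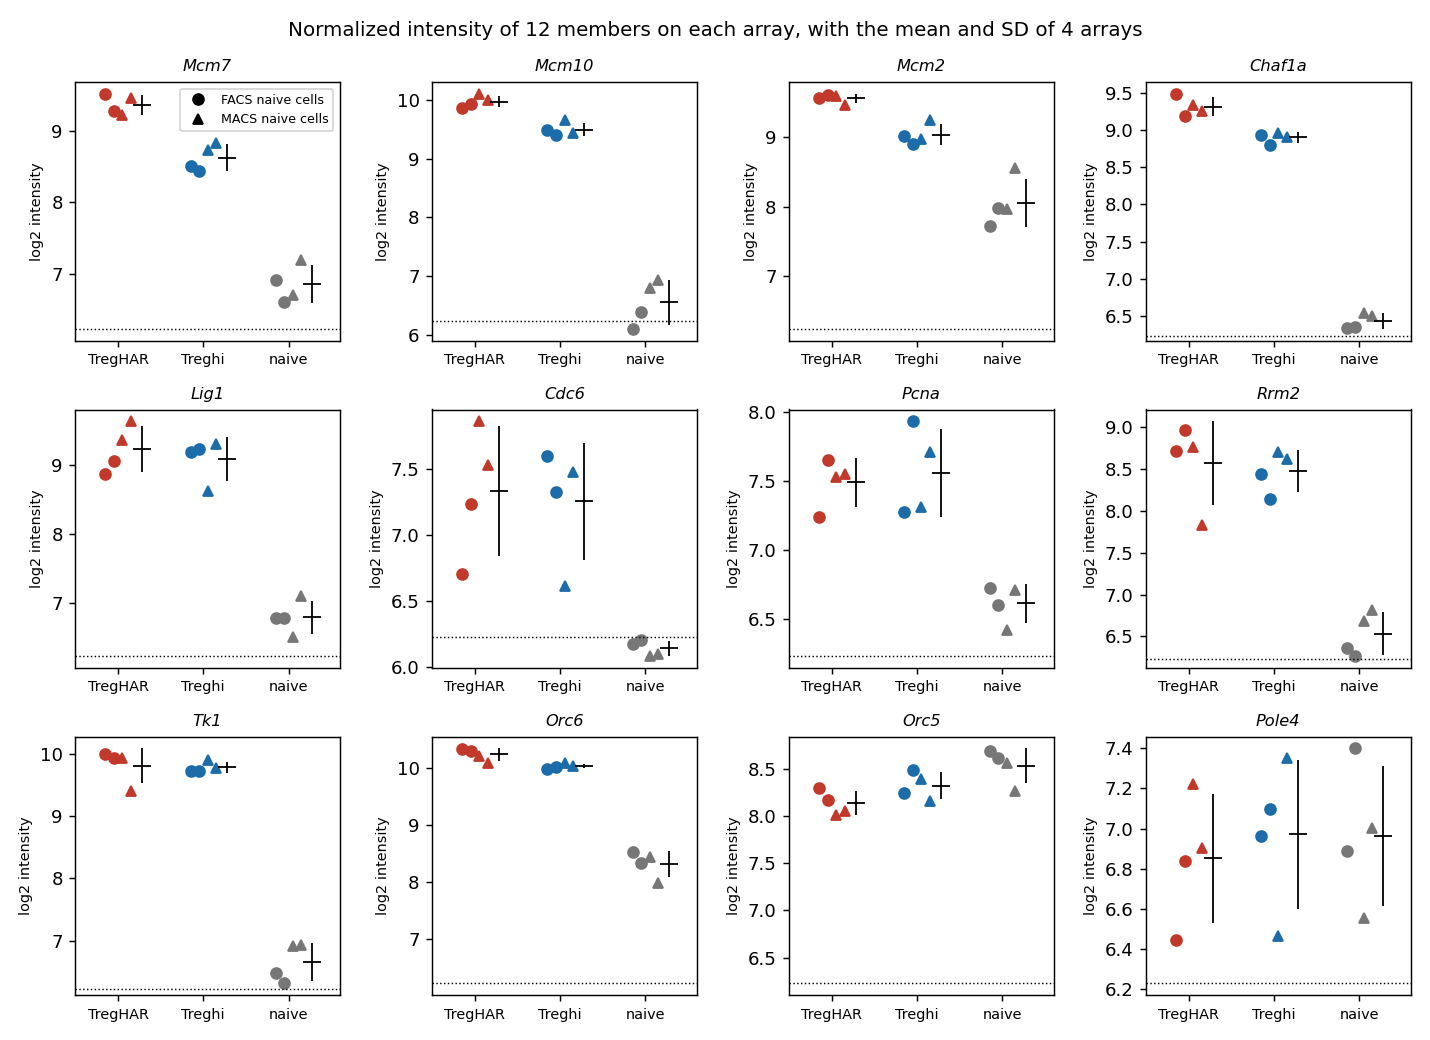
Normalized log2 intensity of 12 genes on each array, with TregHAR on the left, Treghi in the middle and naive cells on the right. Circles stand for FACS-purified and triangles for MACS-purified naive cells, black bars give the mean and SD of 4 arrays, the dotted line is the background ceiling of about 6.2, and each panel has its own axis. The Treg conditions separate for *Mcm7*, *Mcm10*, *Mcm2*, *Chaf1a* and *Orc6* and overlap for the other genes.

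Between the Treg conditions the differences were small and mostly of 1 sign. The median over the 52 genes was 0.14 in favour of TregHAR cells, against -0.0009 over all genes, and 44 were above 0 and 8 below, against 7770 above and 7893 below over all genes. The genes were read on the same 8 Treg arrays and are not 52 separate observations. Taken per array, their medians relative to the naive mean overlapped, at 1.15 to 1.33 on TregHAR and 0.92 to 1.16 on Treghi arrays. The test passed 2 of the 52 as higher in TregHAR cells (background 0.172%) and 0 as lower (background 0.294%), and 17 had an unadjusted p under 0.05 (background 10.8%). On 11 of the 52 all TregHAR arrays lay above all Treghi arrays (background 3.4%), and on 0 they lay below (background 3.17%). By role, these 11 were the helicase genes *Mcm2*, *Mcm4*, *Mcm5*, *Mcm7* and *Mcm10*, the origin gene *Orc6*, the polymerase genes *Pold2* and *Pold3*, and the chromatin and fork genes *Chaf1a*, *Chaf1b* and *Timeless*. None came from the clamp, single-strand binding and ligase role or from nucleotide supply. Markers of CD8 T and NK cells were above background for 4 of 5 in TregHAR and in Treghi cells. Their summed intensity was 3129 to 3859 in TregHAR and 2384 to 2657 in Treghi cells, without overlap. The single markers differed in sign. TregHAR minus Treghi was 1.07 for *Nkg7*, 0.48 for *Prf1*, 0.23 for *Cd8b1* and -0.79 for *Klrd1*, and 0.09 for *Klrb1c*, which was under background in both. Of these markers 0 of the 5 passed, and their part was not tested. The sign was positive in both purifications for 31 of the 52 genes, negative in both for 2 and mixed for 19. The same count was not made over all genes.

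Both genes that passed were helicase genes. *Mcm7* rose in TregHAR cells by 0.74 ± 0.12 over Treghi cells, or 1.67-fold (adjusted p = 0.0422), with 0.92 among FACS-derived and 0.56 among MACS-derived arrays. *Mcm10* rose by 0.48 ± 0.08, or 1.39-fold (adjusted p = 0.0478), with 0.46 among FACS-derived and 0.50 among MACS-derived arrays. Both calls were close to the threshold, and both were lost with a replicate block (adjusted p = 0.0674 for *Mcm7* and 0.0761 for *Mcm10*) and with a block for signal of the Y-linked gene *Eif2s3y* (adjusted p = 0.0579 and 0.0647 for the same genes). Leaving out any 1 of the 12 arrays gave 0.68 to 0.80 for *Mcm7*, with adjusted p-values of 0.0357 to 0.176 and a call kept without the second TregHAR FACS array or without either naive MACS array, and 0.43 to 0.53 for *Mcm10*, with adjusted p-values of 0.0595 to 0.193 and no call kept. A weaker probe of *Mcm7* gave 0.44, with 8.09, 8.70, 8.77 and 8.32 in TregHAR against 8.05, 7.99, 8.20 and 7.89 in Treghi cells, where the lowest TregHAR array lay inside the Treghi range. A weaker probe of *Mcm10* gave 0.25, with 7.73, 7.48, 7.29 and 7.39 in TregHAR against 7.17, 7.28, 7.26 and 7.20 in Treghi cells, which were apart by little.

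Of the other genes, only *Chaf1a* came close to the threshold. *Chaf1a* differed between TregHAR and Treghi cells by 0.42 ± 0.07 (adjusted p = 0.0536), *Mcm5* by 0.37 ± 0.09 (adjusted p = 0.125) and *Mcm2* by 0.53 ± 0.13 (adjusted p = 0.134). *Chaf1a* passed without the second TregHAR FACS array, at an adjusted p of 0.0260. Values for *Timeless* (0.42 ± 0.13) and *Pold1* (0.49 ± 0.16) were as large as some of these, and that for *Pole3* (0.35 ± 0.15) was slightly smaller, but their errors were larger than that of *Chaf1a*. At the other end, *Orc5* had the lowest difference, -0.19 ± 0.09. *Pcna* (-0.07 ± 0.16), *Tk1* (0.03 ± 0.10), *Rrm2* (0.09 ± 0.17), *Cdc6* (0.08 ± 0.19), *Gins3* (-0.03 ± 0.07) and *Rpa1* (0.08 ± 0.06) were near 0 for their error, with adjusted p-values of at least 0.789. The role medians were 0.22 for helicase, 0.08 for origin, 0.20 for polymerase, 0.12 for clamp, single-strand binding and ligase, 0.09 for nucleotide supply and 0.29 for chromatin and fork genes.

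**Figure D4:**
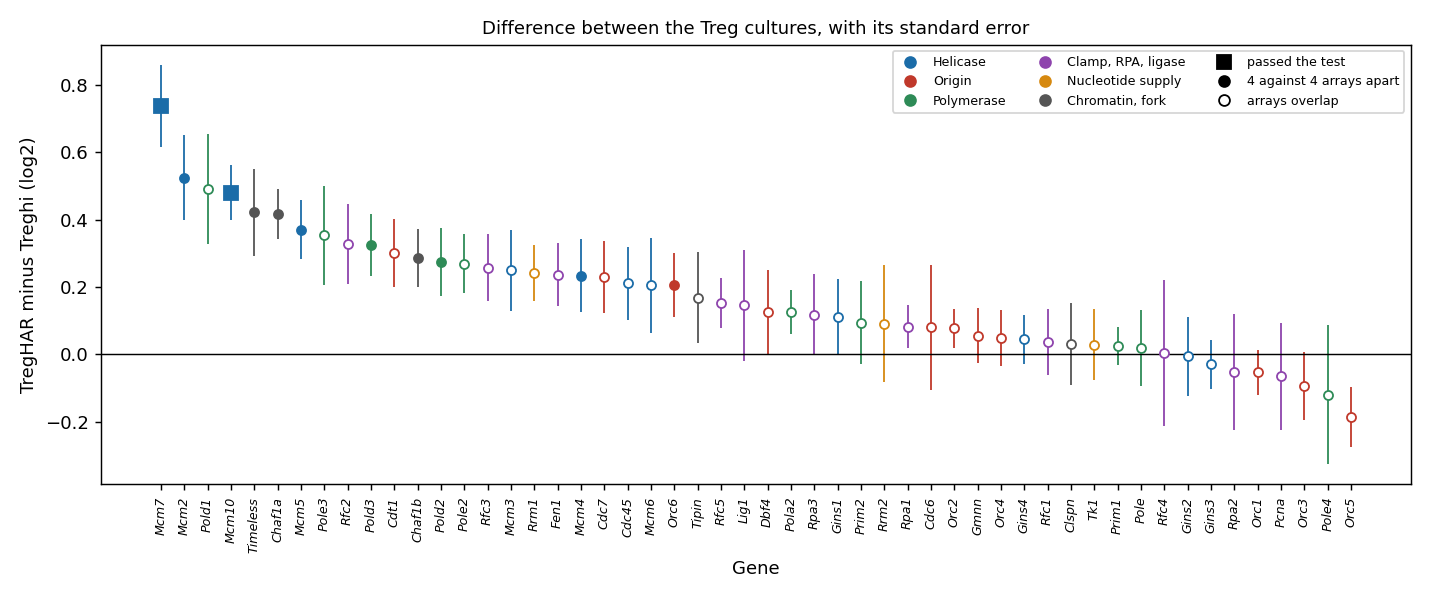
Log2 difference of TregHAR minus Treghi cells for each of the 52 genes, in order of size, with its SE and coloured by role. Squares passed the test, filled symbols are genes whose 4 TregHAR arrays all lay above the 4 Treghi arrays, and open circles are genes whose arrays overlap. The values run from 0.74 for *Mcm7* to -0.19 for *Orc5*.

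The spread among arrays of 1 condition was uneven across the genes. Within a purification, the SD of the Treg arrays was largest for *Rfc4* (0.44), *Cdc6* (0.39), *Pole4* (0.36), *Rrm2* (0.36) and *Rpa2* (0.34), and smallest for *Orc2* (0.04), which was under background. *Rfc4*, chosen here after its values were seen, measured 7.42, 7.69, 8.57 and 8.06 in TregHAR, 8.10, 7.96, 7.29 and 8.38 in Treghi and 6.29, 6.51, 6.03 and 6.34 in naive cells. The first TregHAR FACS array and the first Treghi MACS array were the lowest of their conditions for *Rfc4*, *Cdc6*, *Lig1* and *Pole4* alike. The TregHAR minus Treghi difference of *Cdc6* was accordingly -0.49 among FACS-derived and 0.65 among MACS-derived arrays, and that of *Rfc4* -0.48 and 0.49. The interaction of purification with this difference passed for 0 of the 52 genes, with 4 at an unadjusted p under 0.05, a share near the background of 4.95%, and adjusted p-values of at least 0.916.

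Probes of 1 gene did not always share this spread. *Mcm6* has a dimmer probe with 7.93, 8.27, 8.96 and 9.03 in TregHAR and 8.89, 8.75, 7.59 and 9.50 in Treghi cells, low on the same arrays as *Rfc4*. Its brightest probe had 10.60, 10.22, 10.26 and 9.88 in TregHAR and 10.17, 10.07, 9.91 and 9.98 in Treghi cells, where the first TregHAR FACS array was the highest. Between the Treg conditions *Mcm6* was 0.21 by its brightest probe, 0.14 by its next brightest, which was also above background on all 12 arrays, and -0.14 by the dimmer probe that was low on those arrays. Over the 31 further probes that were above background on at least 4 arrays, which belonged to 19 genes, the sign of the difference between TregHAR and naive cells matched that of the brightest probe for 31, and the sign between TregHAR and Treghi cells for 23. Between Treghi and naive cells it did not match for a probe of *Rpa2* (-0.15, against 0.85 for the brightest). Nor did it match for a probe of *Lig1* (-0.02, against 2.30), and for the rest it matched.

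**Figure D5:**
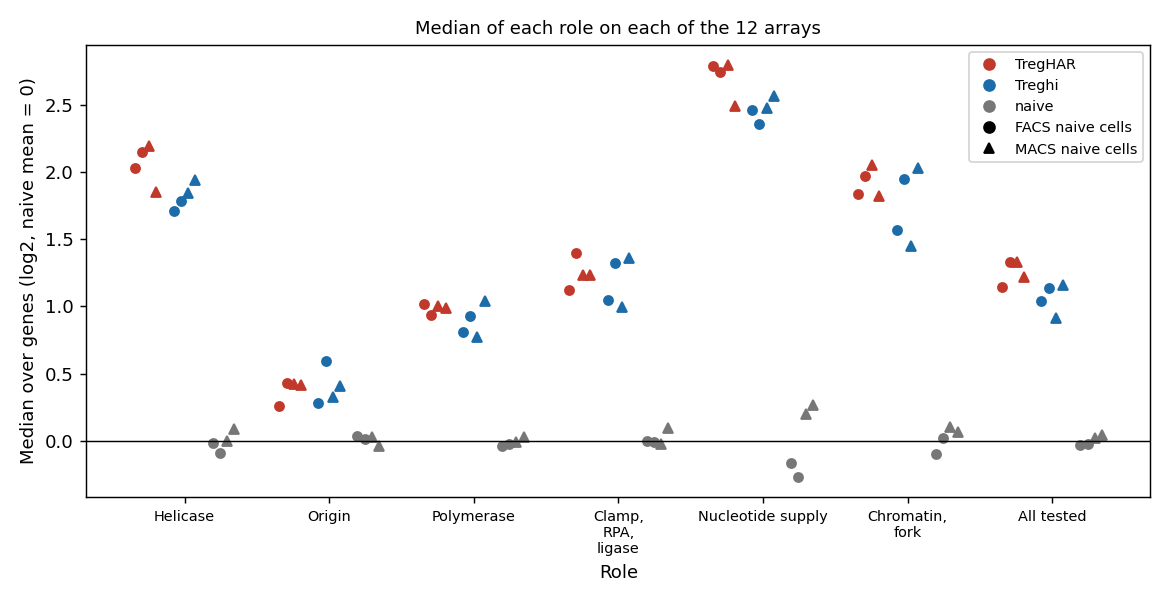
Median over the genes of each role on each array, in log2 units relative to the mean of the 4 naive arrays, with TregHAR in red, Treghi in blue and naive in grey. Circles are FACS-derived and triangles MACS-derived arrays. Nucleotide genes reach 2.49 to 2.80 on TregHAR arrays and 2.36 to 2.56 on Treghi arrays, origin genes only 0.26 to 0.43 and 0.28 to 0.59, and naive FACS arrays lie below naive MACS arrays for the nucleotide genes.

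Naive cells themselves were compared by purification. FACS-purified naive cells had 0 replication genes higher (background 0.0383%) and 1 lower (background 1.34%) than MACS-purified naive cells, with 8 of the 52 at an unadjusted p under 0.05 (background 9.83%). The gene that was lower was *Mcm10*, by -0.63 ± 0.12 (adjusted p = 0.0302), with 6.10 and 6.38 in FACS-purified against 6.80 and 6.93 in MACS-purified cells. *Tk1* (-0.52 ± 0.15, adjusted p = 0.191) and *Mcm5* (-0.49 ± 0.12, adjusted p = 0.129) came next. In the same comparison 6 of 8 B cell markers and 6 of 10 myeloid markers were lower in FACS-purified cells, with medians of -2.04 and -1.71, and the part of those cells in the *Mcm10* difference was not tested. No gene was called when either TregHAR FACS array, either Treghi FACS array, the first naive FACS array or the second naive MACS array was left out, and 3 were without the first naive MACS array.

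Further replication genes that are not among the 54 were counted from a list of 39, of which 35 were tested. In TregHAR cells 18 were higher (background 13.8%) and 1 was lower (background 13.7%) than in naive cells, with a median of 0.48. In Treghi cells 17 were higher (background 12.9%) and 1 was lower (background 13.2%), with a median of 0.35. Between TregHAR and Treghi cells 0 passed, with a median of 0.02 and 5 of the 35 at an unadjusted p under 0.05, a share near that of all genes (10.8%). *Uhrf1*, which couples DNA methylation to the fork, was 3.38 ± 0.26 above naive cells in TregHAR and 3.18 ± 0.26 in Treghi cells. *Top2a*, the topoisomerase of dividing cells, differed by 3.37 ± 0.13 and 3.50 ± 0.13, *Tyms* (thymidylate synthase) by 2.43 ± 0.19 and 2.54 ± 0.19, and *Chtf18*, of the alternative clamp loader, by 2.31 ± 0.13 and 1.99 ± 0.13, in TregHAR and Treghi cells in that order.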

How the data were processed

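The authors deposited probe intensity values of the 12 arrays without normalization, already scaled to a common mean, and a log2 table that they normalized with lumi (its version is not given in the sources used here). For this report limma 3.58.1 (R 4.3.3) removed background from the intensity values by its normexp method with an offset of 50, after which they were put on a common distribution by quantiles and log2-transformed. Probes above the array median on at least 2 arrays were kept (32081 of 45281). Genes were named from the platform annotation, in which 34885 probes had 1 gene, 18 several and 10378 none, and each gene was read from its brightest probe. In limma, 1 mean was fitted to each of the 6 combinations of condition and purification, with no block, and a condition contrast averaged its 2 purifications equally. Tests were two-sided with Benjamini-Hochberg adjustment. The test was tried on simulated data.

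The background ceiling was the peak of the density of an array plus 3 SDs of the values below it. Where the dimmer condition was under it on all arrays, a fold is a bound. No interval from counts applies, and the number of arrays limits precision.

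Values on every array are given for genes that passed between the Treg conditions, for the largest and smallest difference from naive cells in each role, and for *Mcm2*, *Pcna*, *Rrm2*, *Tk1*, *Cdc6* and *Orc1*. Of the additional list, the 4 largest that passed are named. The genes and lists were chosen with earlier results of these data known.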

Additional observations from a re-analysis of the deposited data

Results flagged for a closer look

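In 54 sets of 4 arrays, 2 held an array far from the other 3 by Dixon's criterion, which chance exceeds in about 1 of 20 sets. *Lig1* measured 8.62 on the first Treghi MACS array, against 9.20 to 9.30 on the other Treghi arrays. *Tk1* measured 9.40 on the second TregHAR MACS array, against 9.92 to 9.99 on the other TregHAR arrays.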

How the results depend on the processing

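The 2 calls between TregHAR and Treghi cells were the least stable result. The number of replication genes higher in TregHAR cells was 1 (*Mcm7*) under scaling to a common median, without the filter on dim probes, with only probes above the ceiling on 2 arrays, and with the mean of all probes of a gene. It was 0 with a replicate block, 0 with a block for signal of the Y-linked gene *Eif2s3y*, and 0 among the arrays without or with that signal (which both TregHAR MACS arrays, no TregHAR FACS array and the second replicate of each Treghi and naive group had). Same-numbered arrays deviated together in only some pairs of groups (correlations of -0.62 to 0.42 over 15 pairs, 6 of them over 0.1), so the numbers were not taken to pair the arrays. The methods' t-test gave 18 of 52 at its own threshold and 0 after Benjamini-Hochberg adjustment (10.3% of all genes at its own threshold). Leaving out 1 array gave 0 to 3, and the 3 were *Mcm7*, *Chaf1a* and *Chaf1b*, without the second TregHAR FACS array. A fit of condition alone, without purification, gave 2, which were *Mcm7* and *Chaf1a* and not *Mcm10*. Over all genes, 27 were higher and 46 lower in TregHAR cells, with 3 to 61 and 9 to 81 when 1 array was left out and 0 to 46 and 0 to 71 under the other alternatives. The median of the replication genes between TregHAR and Treghi cells stayed positive, at 0.07 to 0.23 under every alternative run.

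Against naive cells, 41 to 47 genes were higher in TregHAR and 36 to 47 in Treghi cells under all alternatives, and of those called at first 39 and 35 were called under each of the 24 fits that tested them. Calls lost in some fits were *Gins3*, *Orc5*, *Cdc6*, *Gmnn*, *Prim1*, *Pole2*, *Rpa1* and *Rpa2* in TregHAR cells. In Treghi cells they were *Mcm2*, *Gins3*, *Orc3*, *Cdc6*, *Gmnn*, *Prim1*, *Pole2*, *Pold2*, *Rfc2*, *Rpa1*, *Rpa2* and *Timeless*. Among the arrays with *Eif2s3y* signal, the counts over all genes against naive cells were 1135 higher and 957 lower in TregHAR and 1095 higher and 881 lower in Treghi cells, and among those without it 1378 and 1222 were lower in TregHAR and in Treghi cells. With the mean of all probes, the differences of *Mcm10*, *Lig1*, *Tk1*, *Rrm2* (1.26 in both Treg conditions) and *Cdc6* (0.50 in TregHAR, 0.51 in Treghi) from naive cells fell by over 1.5 times and were still called, as were those of *Cdc6* (0.74 and 0.69 in the same order) and *Gins3* (0.21 and 0.24) in the deposited values. The median of TregHAR over naive cells was 1.09 without background correction, 1.02 in the deposited log2 values, 1.16 without the filter on dim probes, 1.40 with only probes above the ceiling and 0.99 with the mean of all probes. That of Treghi over naive cells was 0.895 without background correction, 0.85 in the deposited values and 0.89 with the mean of all probes, and 0.91 to 1.13 when 1 array was left out. The fall of *Orc5* in TregHAR cells was not called among the arrays with *Eif2s3y* signal (0 genes lower), and 1 gene was lower in Treghi cells with the mean of all probes, and 0 to 1 when 1 array was left out. Between naive purifications, 0 genes were lower under scaling to a common median, no background correction, the deposited values, the mean of all probes and the replicate block, and 0 to 3 when 1 array was left out.

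Signs were followed for the replication genes chosen above to have values given on every array, and they turned only in comparisons with no call. Other replication genes were not examined for this. Leaving out 1 array gave, for TregHAR minus Treghi, -0.14 to 0.30 for *Cdc6*, -0.087 to 0.026 for *Gins3*, -0.027 to 0.32 for *Lig1*, -0.11 to 0.0066 for *Orc1*, -0.23 to 0.10 for *Pcna*, -0.34 to 0.10 for *Pole4*, -0.14 to 0.32 for *Rrm2* and -0.10 to 0.16 for *Tk1*. *Pole4* against naive cells ran from -0.24 to 0.017 in TregHAR and from -0.21 to 0.23 in Treghi cells. Among the arrays without *Eif2s3y* signal, TregHAR minus Treghi was 0.15 for *Pcna* and -0.14 for *Cdc6*, and *Pole4* in Treghi over naive cells was -0.0064. Among the arrays with it, TregHAR minus Treghi was -0.086 for *Tk1*, -0.081 for *Rrm2* and 0.053 for *Orc1*. With the mean of all probes it was -0.0097 for *Cdc6*. The cause of these changes was not tested.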
